A study of Mus musculus with 24 samples.

Results

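Transcripts of 10 genes used as markers of fibro-adipogenic progenitors were followed in 24 bulk RNA sequencing libraries of muscle stem cells isolated from mouse muscle. The genes are Pdgfra, Cd248, Pi16, Ly6a, Dcn, Lum, Mfap5, Smoc2, Dpt and Gsn. They were taken by symbol from the deposited table, and all 10 were among its 17111 genes and among the 16985 genes that passed the filter on low values. There were 4 libraries for each of 6 combinations of genotype and day, from 2 genotypes and 3 days.

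Group KO has the genotype L2A-Pax7CreER and is called KO in the library names, L2A standing for Lamp2a in the series' design. CreER is a tamoxifen-inducible Cre, here driven by Pax7, the transcription factor of muscle stem cells, and the labels give neither the floxed allele nor the tamoxifen schedule. Group WT has the genotype L2A-WT. Lamp2a is the splice form of Lamp2 that serves as the lysosomal receptor of chaperone-mediated autophagy. Each genotype was sampled from uninjured muscle (day 0) and 1 and 4 days after muscle received 50 µL of cardiotoxin at 10 µM, which destroys myofibres and comes from snake venom. All cells were primary, all libraries carry the same batch label, and the SMART-Seq v4 low-input kit was used throughout. Titles name Cre in KO only and no group has Cre with intact Lamp2a, so the Cre allele and the loss of Lamp2a cannot be told apart. The labels do not say whether replicates are separate mice, so p-values measure the spread between these libraries, which may be technical. Ages are not given in the labels used here.

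Fibro-adipogenic progenitors are the resident mesenchymal cells of the muscle interstitium. They are known for carrying the receptor Pdgfra and the surface antigen Sca-1 (encoded by Ly6a), for multiplying after injury and supplying matrix and signals to muscle stem cells, and for giving rise to fibroblasts and adipocytes. Muscle stem cells lie beneath the basal lamina of the myofibre and are recognised by Pax7. In bulk libraries, fewer cells of a type and less RNA per cell cannot be told apart.

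Total counts were 11.58 to 22.47 M reads per library. A deposited value is close to a CPM value after a scaling factor, and a floor of 3 counts corresponds to a value between 0.145 and 0.32, depending on the library, for counting error only. The scaling factor differed by group, so values and sums set KO beside WT under different factors. At day 1 it was 0.890 to 0.938 in KO and 1.09 to 1.15 in WT. At day 4 it was 0.744 to 0.887 in KO and 1.16 to 1.30 in WT. Pax7 ranged from 28.5 to 37.0 in KO day 1 libraries and from 46.5 to 111 in the other groups. At the level of the whole Lamp2 gene, which does not separate its splice forms, the means were 582 ± 36.0 in KO and 676 ± 151 in WT at day 0, 390 ± 71.7 in KO and 415 ± 35.0 in WT at day 1, and 222 ± 49.3 in KO and 209 ± 13.1 in WT at day 4 (SD, n = 4 each). Lamp2 did not pass the genotype test at any day (lowest limma adjusted p = 0.523), and a value for the whole gene does not check the labels.

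A pair of KO libraries stood apart for the markers, and they were not the only libraries that were highest for many of them. KO day 4 replicate 3 was the highest of its group for 7 of the 10 genes, and their summed value there was 1277, against 322 to 545 in the other 3 libraries of the group. KO day 1 replicate 4 was the highest of its group for 6 of the 10 genes, but not in summed value. Its sum was 1677, below the 2089 of KO day 1 replicate 3. Without Gsn, Dcn and Dpt its sum was 122, against 7.22 to 30.3 in the rest of its group. WT day 4 replicate 4 was also highest for 6 of the 10 genes, with a summed value of 677 against 387 to 493 in the rest of its group. The share of all genes that were highest in each of these libraries was not computed. Results that rest on the pair of KO libraries are given with and without them. Of the 24 libraries, KO day 4 replicate 3 also had the highest sum of 21 other fibroblast genes (4022), of 8 small leucine-rich proteoglycans (879) and of 8 glial genes (112), while its sum of 16 macrophage genes (1252) was the lowest of both day 4 groups. The part of any of these cells in the results was not tested.

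The 10 genes did not behave as one measure of stromal cells. In uninjured WT libraries Pdgfra and Cd248 had 0 counts in all 4 libraries, while Dcn, Dpt and Gsn each stood above 100 in the same libraries. They are therefore called here by what they are, genes of a marker list, with no claim about which cells carried their transcripts. Per kilobase of exon, the levels in KO day 0 libraries were highest for Gsn (182 ± 33.4), then Dcn (141 ± 29.4) and Dpt (91.0 ± 27.1), with overlapping ranges between neighbours in that order. Mfap5 followed at 15.7 ± 8.0 per kilobase, apart from Dpt, and Pdgfra was last at 0.0489 ± 0.0845 per kilobase (SD, n = 4 each).

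In WT day 0 libraries the same 3 genes led per kilobase, with Dpt at 96.2 ± 23.5, Gsn at 94.5 ± 18.6 and Dcn at 54.7 ± 23.1, whose ranges overlapped. By day 4 the order had changed. Per kilobase, Gsn (62.3 ± 23.8), Ly6a (39.5 ± 38.5) and Dcn (37.2 ± 38.7) led in KO libraries and overlapped each other, and Ly6a (74.1 ± 21.9) and Gsn (56.5 ± 10.7) overlapped at the top in WT libraries (SD, n = 4 each). Pi16 had the lowest mean at day 4, with 0.392 ± 0.108 per kilobase in KO and 0.410 ± 0.230 per kilobase in WT (SD, n = 4 each). Its range overlapped that of Pdgfra, the next gene up, in both genotypes. Between genes, these levels per kilobase use the exon lengths of GENCODE M21, an annotation of another build than the mm39 named in the submitters' processing notes.

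**Figure D1:**
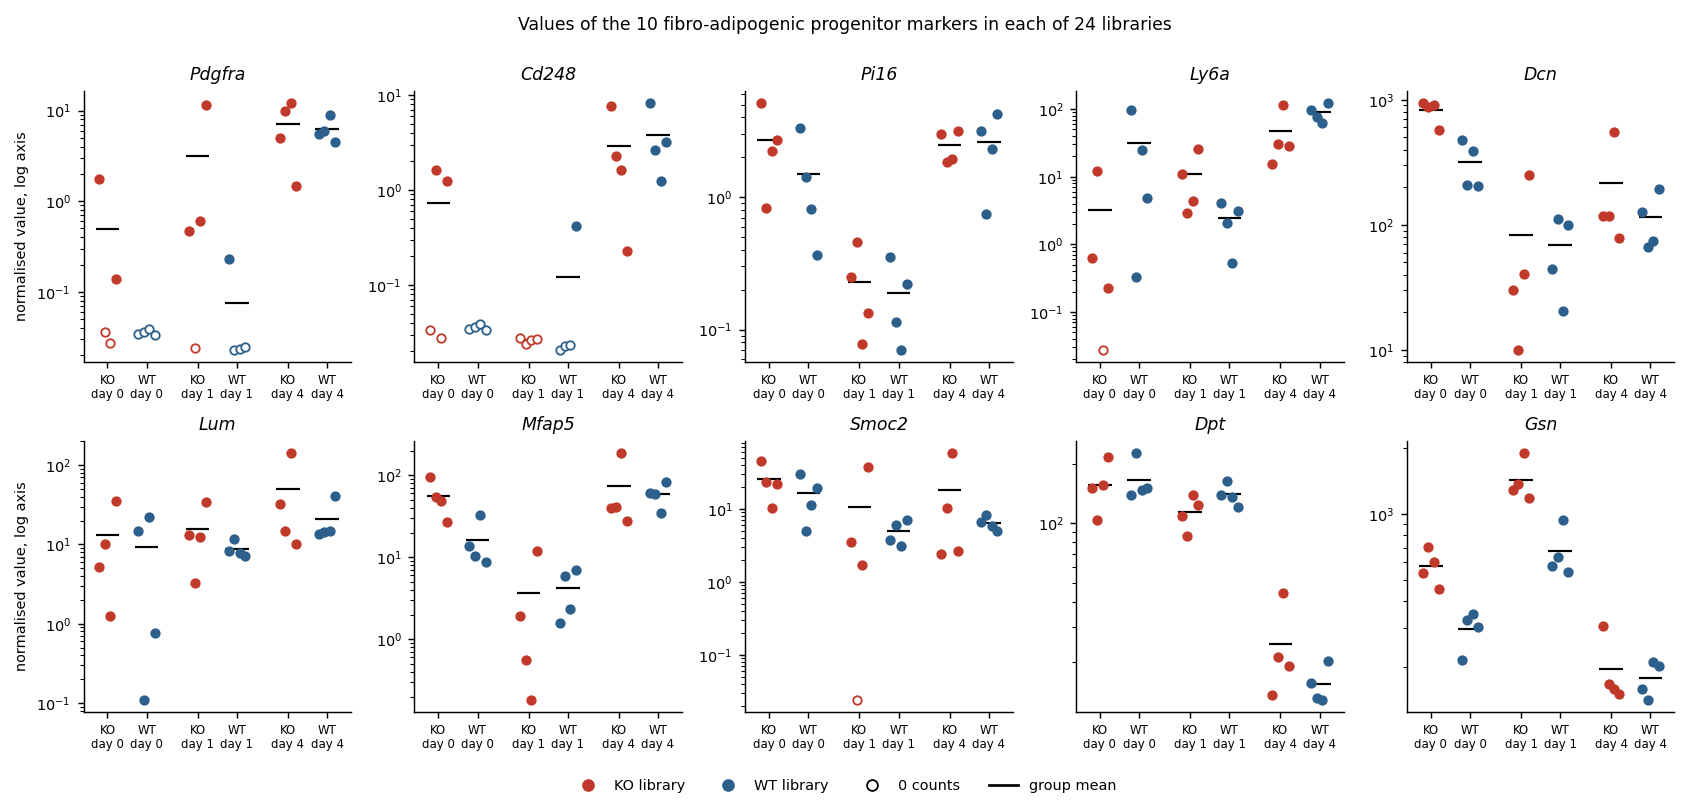
Normalised value on a log axis of each of the 10 markers in each of the 24 libraries, KO (red) left of WT (blue) at days 0, 1 and 4, with open circles for libraries with 0 counts and a black line at the group mean. Pdgfra and Cd248 sit at 0 counts in all 4 WT day 0 libraries, Gsn peaks at day 1 and is higher in KO there, and Dpt drops at day 4.

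Because Gsn and Dcn made up most of the summed value (median shares of 42.9% and 25.0% over the 24 libraries), the sum follows these genes. Summed over the 10 genes it was 1331 to 1785 in KO and 692 to 987 in WT at day 0, 1454 to 2089 in KO and 778 to 1111 in WT at day 1, and 322 to 1277 in KO and 387 to 677 in WT at day 4. Without Gsn, Dcn and Dpt, the sum of the other 7 genes was 63.1 to 155 in KO and 17.2 to 159 in WT at day 0, 7.22 to 122 in KO and 14.04 to 26.0 in WT at day 1, and 73.4 to 518 in KO and 130 to 262 in WT at day 4. The genotypes were apart in the first sum at days 0 and 1 and overlapped at all days in the second. As a share of the library, the first sum was 0.126% to 0.188% in KO and 0.0645% to 0.0952% in WT at day 0. At day 1 it was 0.129% to 0.196% in KO and 0.0848% to 0.127% in WT, narrowly apart.

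Days within a genotype gave most of the changes. From day 0 to day 1, Dcn, Mfap5 and Pi16 fell and Gsn rose in both genotypes. At day 1 against day 0 the test was passed in KO by 5 of 10 genes, with Gsn higher and Dcn, Mfap5, Pi16 and Smoc2 lower, beside 45.6% of all tested genes (24.2% higher and 21.5% lower). In WT it was passed by 4 of 10, with Gsn higher and Dcn, Mfap5 and Pi16 lower, beside 52.6% of all tested genes (27.7% higher and 24.9% lower). The median log2 difference of the 10 genes was −0.52 in KO and −0.58 in WT, against medians over all tested genes of −0.01 in each.

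By day 4, Pdgfra, Cd248, Pi16 and Mfap5 rose in both genotypes while Dpt and Gsn fell. At day 4 against day 1, 7 of 10 genes passed in KO, with Pdgfra, Cd248, Pi16, Mfap5 and Dcn higher and Dpt and Gsn lower, beside 49.6% of all tested genes (26.2% higher and 23.4% lower). In WT 7 of 10 passed too, with Pdgfra, Cd248, Pi16, Mfap5 and Ly6a higher and Dpt and Gsn lower, beside 50.4% of all tested genes (27.8% higher and 22.6% lower). The medians of the 10 genes were 1.51 in KO and 1.26 in WT on the log2 scale, against 0.18 and 0.22 over all tested genes in KO and WT.

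Across the whole interval, day 4 against day 0, 5 of 10 genes passed in KO (Ly6a and Pdgfra higher, Dcn, Dpt and Gsn lower), beside 40.5% of all tested genes (22.3% higher and 18.2% lower). In WT 6 of 10 passed (Pdgfra, Cd248, Mfap5 and Ly6a higher, Dpt and Gsn lower), beside 44.6% of all tested genes (25.7% higher and 18.9% lower). Between 4 and 7 of the 10 genes passed in these 6 comparisons, where 40.5% to 52.6% of all tested genes did. The KO and WT day differences are separate comparisons, and the 3 day contrasts within a genotype share libraries.

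**Figure D2:**
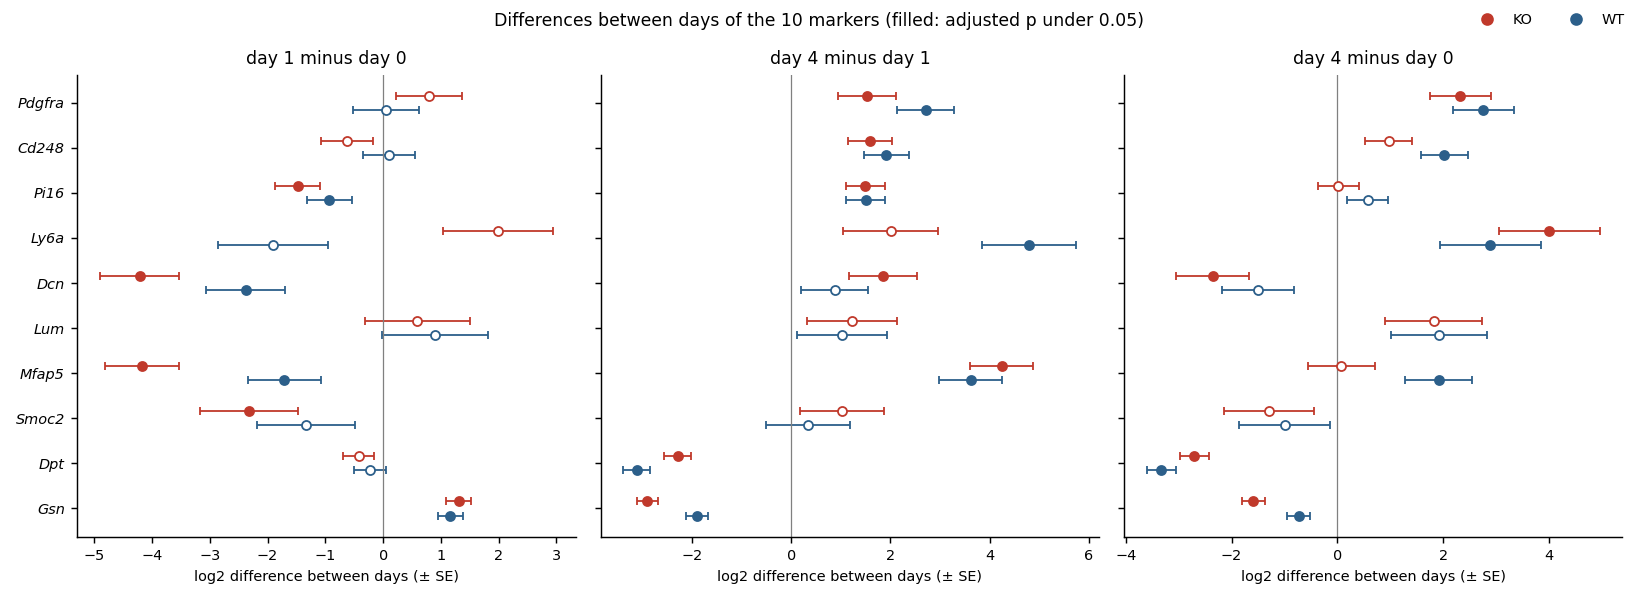
Log2 difference ± SE of each marker between days, from the limma model, with KO (red) above WT (blue) for each gene and filled points for adjusted p under 0.05. Dcn and Mfap5 fell at day 1 against day 0 in both genotypes, Mfap5, Pdgfra, Cd248 and Pi16 rose at day 4 against day 1, and Dpt and Gsn fell there.

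Pdgfra encodes the alpha receptor for platelet-derived growth factor, and is the usual antigen for sorting fibro-adipogenic progenitors. At day 0 its values were 1.76, 0.0358, 0.0276 and 0.137 in KO libraries, with 26, 0, 0 and 1 counts, and all 4 WT libraries had 0 counts. At day 1 they were 0.472, 0.0240, 0.600 and 11.6 in KO, and 0.228, 0.0229, 0.0234 and 0.0246 in WT. At day 4 they were 4.99, 9.90, 12.1 and 1.46 in KO, and 5.48, 5.91, 8.93 and 4.45 in WT. Before day 4, 1 library held nearly all Pdgfra counts of a group where there were any, and at day 4 every library of both genotypes had counts.

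Pooled over its libraries, WT at day 4 had 393 Pdgfra counts, at least 116.5-fold higher than WT at day 0 with a floor of 3 counts over the group. The pooled KO day 0 level was at least 8.72-fold higher than WT at day 0, on 27 counts of which KO day 0 replicate 1 gave 26. Comparing day 4 with day 1, Pdgfra rose by 1.53 ± 0.58 in KO (adjusted p = 0.0307) and by 2.71 ± 0.58 in WT (adjusted p = 0.000423) on the log2(value + 1) scale, on which changes of low genes come out too small. For day 4 against day 0 it rose by 2.33 ± 0.58 in KO (adjusted p = 0.00236). This call was lost with library weights and with edgeR (with or without KO day 1 replicate 4 and KO day 4 replicate 3). The KO rise against day 1 was 2.34 without KO day 1 replicate 4 (adjusted p = 0.000184), 1.21 without KO day 4 replicate 3 (adjusted p = 0.107) and 2.02 without both (adjusted p = 0.000856). That call was also lost when KO day 1 replicate 1, 2 or 3 or KO day 4 replicate 2 was left out, with an adjusted p of at most 0.131. It was lost too with edgeR, DESeq2, quantile normalization, a pseudocount of 5 and only the groups compared.

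Cd248 encodes endosialin, a membrane protein of stromal and perivascular cells. At day 0 it had 0, 22, 0 and 13 counts in KO libraries, for values up to 1.61, and 0 counts in all 4 WT libraries. At day 1 it had 0 counts in all 4 KO libraries, and 0, 0, 0 and 8 counts in WT libraries. At day 4 its values were 7.66, 2.26, 1.60 and 0.227 in KO, and 8.24, 2.61, 1.24 and 3.19 in WT. Only day 4 libraries all had counts, and the genotypes overlapped there.

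Pooled over the group, Cd248 at day 4 was at least 69.8-fold higher than at day 1 in KO and at least 68.5-fold higher than at day 0 in WT, with a floor of 3 counts over the group. At day 4 against day 1, where WT had 8 counts, Cd248 rose in WT by 1.92 ± 0.45 (adjusted p = 0.00106). The test was also passed for KO at day 4 against day 1 (adjusted p = 0.00513) and for WT at day 4 against day 0 (adjusted p = 0.000761). At day 0 the pooled KO level was at least 11.3-fold higher than in WT, from 35 counts in 2 of the 4 KO libraries. The KO day 1 level was at least 15.4-fold lower than at day 0 in KO, a difference called by edgeR and DESeq2 (adjusted p = 0.0195 and 0.00973) and not by limma (adjusted p = 0.276).

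Pi16 encodes peptidase inhibitor 16, which marks a progenitor-like fibroblast state found in many tissues. Its values at day 0 were 5.14, 0.823, 2.24 and 2.69 in KO, and 3.34, 1.42, 0.808 and 0.366 in WT. Day 1 values were 0.250, 0.456, 0.0782 and 0.134 in KO, and 0.353, 0.115, 0.0703 and 0.222 in WT, from 1 to 9 counts a library. Day 4 values were 3.02, 1.85, 1.95 and 3.15 in KO, and 3.14, 0.752, 2.33 and 4.22 in WT. In both genotypes the day 1 libraries lay below those of days 0 and 4, and the genotypes overlapped at each day.

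At day 1 against day 0, Pi16 changed by −1.48 ± 0.39 in KO (adjusted p = 0.00308) and −0.93 ± 0.39 in WT (adjusted p = 0.0477) on the log2(value + 1) scale. The WT call stood at the threshold and was lost in 16 of the 24 fits that left out 1 library, with an adjusted p of up to 0.196. That WT call was also lost with total-count scaling, library weights and a pseudocount of 5, and without KO day 1 replicate 4 and KO day 4 replicate 3 together. Comparing day 4 with day 1 it rose by 1.49 ± 0.39 in KO (adjusted p = 0.00262) and 1.499 ± 0.39 in WT (adjusted p = 0.00256). Both rises were not past the threshold after quantile normalization (adjusted p = 0.13 in KO and 0.0635 in WT).

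Ly6a encodes Sca-1, a GPI-anchored surface protein of fibro-adipogenic progenitors that endothelial and haematopoietic cells carry as well. At day 0 its values were 0.630, 11.99, 0.0276 and 0.228 in KO, and 97.4, 0.328, 24.7 and 4.82 in WT. The day 1 libraries had 10.8, 2.90, 4.35 and 26.0 in KO, and 4.09, 2.04, 0.539 and 3.13 in WT. The day 4 libraries had 15.4, 30.0, 116 and 28.4 in KO, and 96.1, 75.7, 62.4 and 123 in WT. Ly6a spread more between uninjured replicates than any other of the 10 genes on the log2 scale, and its genotypes overlapped at every day.

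At day 1 against day 0, Ly6a differed by 1.99 ± 0.96 in KO (adjusted p = 0.0938) and −1.91 ± 0.96 in WT (adjusted p = 0.0983). The WT difference passed with edgeR (adjusted p = 0.0232), DESeq2 (adjusted p = 0.00934) and without WT day 0 replicate 2 (adjusted p = 0.00694). The KO difference passed without KO day 0 replicate 2 (adjusted p = 0.0182) or WT day 0 replicate 2 (adjusted p = 0.0479). For day 4 against day 0, Ly6a rose by 4.00 ± 0.96 in KO (adjusted p = 0.00171) and by 2.89 ± 0.96 in WT (adjusted p = 0.0168). The KO call was lost with edgeR when KO day 1 replicate 4 and KO day 4 replicate 3 were both left out. The WT call was lost without WT day 0 replicate 2 or replicate 4 (adjusted p of at most 0.0962). It was lost too with only the groups compared, with DESeq2, and with edgeR with or without those KO libraries. At day 4 against day 1 it rose by 4.80 ± 0.96 in WT (adjusted p = 0.000217), and the difference in KO was 2.01 ± 0.96 (adjusted p = 0.0846), or 2.54 without KO day 1 replicate 4 (adjusted p = 0.0451) and 1.98 without KO day 4 replicate 3 as well (adjusted p = 0.141). That KO difference also passed with library weights, with only the groups compared, with a pseudocount of 5, and without WT day 0 replicate 1 or 2 (adjusted p of 0.0165 to 0.0477). A list of endothelial genes, of other cells that carry Ly6a, was set beside it. The summed value of 7 endothelial genes was 84.8 to 182 in KO and 141 to 273 in WT at day 0, 14.8 to 22.96 in KO and 23.5 to 40.4 in WT at day 1, and 13.98 to 24.6 in KO and 9.22 to 18.3 in WT at day 4. At day 4 these sums lay below all those of day 0 in both genotypes. Gene by gene, Cdh5 and Tek alone were called at day 4 against day 0, lower in both genotypes. The median log2 difference of the 7 genes there was 0.11 in KO and −0.84 in WT. At day 4 against day 1, Esam and Pecam1 rose and Tek fell in KO. In WT, Kdr rose and Egfl7 and Tek fell. The part of endothelial cells in the Ly6a values was not tested.

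Dcn encodes decorin, a small leucine-rich proteoglycan that binds collagen fibrils and transforming growth factor beta. At day 0 its values were 942, 876, 910 and 570 in KO, and 474, 208, 391 and 205 in WT. After 1 day they were 30.2, 10.0, 40.7 and 250 in KO, and 44.2, 111, 20.3 and 100 in WT. After 4 days they were 117, 117, 555 and 78.9 in KO, and 126, 66.1, 73.9 and 192 in WT. The day 1 libraries lay below the day 0 libraries in both genotypes, and KO lay above WT without overlap at day 0 alone.

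At day 1 against day 0, Dcn changed by −4.22 ± 0.68 in KO (adjusted p = 1.97e-05) and −2.38 ± 0.68 in WT (adjusted p = 0.00517) on the log2 scale, and by −5.06 in KO without KO day 1 replicate 4 (adjusted p = 3.81e-07). With library weights the WT call was lost (adjusted p = 0.0885). Comparing day 4 with day 1, Dcn rose by 1.86 ± 0.68 in KO (adjusted p = 0.0271). This call rested on single libraries: it was 2.70 without KO day 1 replicate 4 (adjusted p = 0.000728), 1.25 without KO day 4 replicate 3 (adjusted p = 0.137) and 2.09 without both (adjusted p = 0.00332). It was lost without KO day 1 replicate 1, 2 or 3 as well, with an adjusted p of at most 0.146, and with edgeR, DESeq2 and only the groups compared. In WT the difference was 0.87 ± 0.68 (adjusted p = 0.297). For day 4 against day 0, Dcn fell by 2.36 ± 0.68 in KO (adjusted p = 0.00777), lost with quantile normalization or library weights, and the WT difference was −1.50 ± 0.68 (adjusted p = 0.077). This WT difference passed without KO day 1 replicate 4 (adjusted p = 0.0304), without both libraries (adjusted p = 0.0122) and with only the groups compared (adjusted p = 0.0108).

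Lum encodes lumican, a proteoglycan of the same family, and it lies next to Dcn on chromosome 10, followed by the family members Kera and Epyc, in the RefSeq gene order. Its values at day 0 were 5.14, 10.1, 1.24 and 35.4 in KO, and 14.6, 0.109, 22.1 and 0.764 in WT. At day 1 they were 13.3, 3.24, 12.4 and 34.3 in KO, and 8.20, 11.8, 7.90 and 7.11 in WT. At day 4 they were 32.8, 14.9, 142 and 10.2 in KO, and 13.6, 14.5, 14.7 and 40.3 in WT. Lum did not pass the test in any comparison, and its replicates spread widely at day 0. In WT every day 4 library lay above every day 1 library, with means 2.37-fold apart, and the log2 difference of 1.03 ± 0.91 (adjusted p = 0.36) passed with only the groups compared (adjusted p = 0.0131). The differences at day 4 against day 0 were 1.82 ± 0.91 in KO (adjusted p = 0.115) and 1.93 ± 0.91 in WT (adjusted p = 0.0893), and they passed in KO without KO day 0 replicate 4 (adjusted p = 0.0356) and in WT without WT day 0 replicate 1 or 3 (adjusted p = 0.0414 and 0.0234) or with total-count scaling (adjusted p = 0.0416).

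Mfap5 encodes a microfibril-associated glycoprotein of elastic fibres. At day 0 its values were 95.6, 53.6, 49.1 and 26.8 in KO, and 13.7, 10.3, 32.9 and 8.74 in WT. Day 1 values were 1.92, 0.552, 0.183 and 11.95 in KO, and 1.60, 5.90, 2.37 and 6.92 in WT. Day 4 values were 39.5, 41.1, 186 and 27.3 in KO, and 60.6, 59.0, 35.1 and 82.0 in WT. Day 1 libraries lay below those of both other days in each genotype without overlap.

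At day 1 against day 0, Mfap5 changed by −4.17 ± 0.64 in KO (adjusted p = 8.69e-06) and −1.71 ± 0.64 in WT (adjusted p = 0.0268) on the log2 scale. The WT call was lost without WT day 0 replicate 3, WT day 1 replicate 1 or WT day 1 replicate 3, with an adjusted p of at most 0.102, and with edgeR, total-count scaling or library weights (adjusted p of at most 0.128). At day 4 against day 1 it rose by 4.25 ± 0.64 in KO (adjusted p = 5.77e-06) and 3.62 ± 0.64 in WT (adjusted p = 5.04e-05). Comparing day 4 with day 0 it was 0.07 ± 0.64 in KO (adjusted p = 0.941) and rose by 1.91 ± 0.64 in WT (adjusted p = 0.0171). This WT call was lost with edgeR, with library weights, and without WT day 0 replicate 4 or WT day 4 replicate 4 (adjusted p of at most 0.0515 without either library).

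Smoc2 encodes a secreted calcium-binding matrix protein. It ranged from 10.4 to 46.2 in KO and 5.0 to 30.0 in WT at day 0, from 0.0240 (0 counts) to 37.7 in KO and 3.12 to 7.16 in WT at day 1, and from 2.40 to 58.5 in KO and 5.03 to 8.27 in WT at day 4. At days 1 and 4 the KO libraries spread on both sides of the WT libraries. Its single call with all 24 libraries in limma was the fall at day 1 against day 0 in KO, by 2.32 ± 0.85 (adjusted p = 0.0286). The fall was 3.34 without KO day 1 replicate 4 (adjusted p = 0.00105). That fall was lost without KO day 0 replicate 1 or 2 or KO day 1 replicate 1, 2 or 3, with an adjusted p of at most 0.141. It was lost too with edgeR, DESeq2, library weights, a pseudocount of 5 and only the groups compared. The WT difference was −1.34 ± 0.85 (adjusted p = 0.198), and it passed without KO day 1 replicate 4 and KO day 4 replicate 3 together (adjusted p = 0.0473). At day 4 against day 1 the KO difference was 1.03 ± 0.85 (adjusted p = 0.33), or 2.05 without KO day 1 replicate 4 (adjusted p = 0.0306). Without KO day 4 replicate 3, Smoc2 was also lower in KO at day 4 than at day 0, by 2.17 (adjusted p = 0.0377), against −1.29 ± 0.85 with it (adjusted p = 0.236).

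Dpt encodes dermatopontin, a tyrosine-rich matrix protein that binds decorin. At day 0 its values were 151, 103, 156 and 217 in KO, and 139, 226, 147 and 151 in WT. The day 1 libraries had 109, 86.1, 139 and 123 in KO, and 139, 163, 136 and 121 in WT. The day 4 libraries had 13.5, 21.2, 44.6 and 19.1 in KO, and 15.7, 13.1, 12.8 and 20.2 in WT. Every day 4 library lay below every earlier library, whichever the genotype.

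Dpt fell at day 4 against day 1 by 2.29 ± 0.27 in KO (adjusted p = 1.96e-07) and by 3.11 ± 0.27 in WT (adjusted p = 1.7e-09). Against day 0 the day 4 falls were 2.71 ± 0.27 in KO (adjusted p = 1.98e-08) and 3.33 ± 0.27 in WT (adjusted p = 4.8e-10). Neither genotype passed the test at day 1 against day 0, where the differences were −0.43 ± 0.27 in KO (adjusted p = 0.215) and −0.23 ± 0.27 in WT (adjusted p = 0.518). The highest Dpt value at day 4 was that of KO day 4 replicate 3, without which the KO fall against day 1 was 2.61 (adjusted p = 6.45e-09).

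Gsn encodes gelsolin, which severs and caps actin filaments and is made by many cell types, fibroblasts and muscle among them. At day 0 its values were 536, 704, 603 and 455 in KO, and 215, 328, 348 and 303 in WT. After 1 day they were 1284, 1360, 1890 and 1182 in KO, and 577, 636, 941 and 543 in WT. After 4 days they were 309, 168, 159 and 151 in KO, and 158, 142, 211 and 203 in WT. Every KO library exceeded every WT library at days 0 and 1, and the genotypes overlapped at day 4.

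Day 1 was the peak of Gsn in both genotypes. It rose at day 1 against day 0 by 1.31 ± 0.22 in KO (adjusted p = 2.96e-05) and 1.16 ± 0.22 in WT (adjusted p = 9.31e-05) on the log2 scale. For day 4 against day 1 it fell by 2.90 ± 0.22 in KO (adjusted p = 8.38e-11) and by 1.90 ± 0.22 in WT (adjusted p = 1.47e-07). At day 4 against day 0 it fell by 1.59 ± 0.22 in KO (adjusted p = 2.69e-06) and by 0.74 ± 0.22 in WT (adjusted p = 0.00846). The last of these turned to 0.26 after quantile normalization, and was not past the threshold with total-count scaling, so the WT level at day 4 relative to day 0 depends on the scaling.

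Promoters of Gsn, Dpt and Pdgfra are shown because Gsn and Dpt fell at day 4 while Pdgfra rose. RefSeq's table on GRCm38.p6 held promoters for 4 of the 10 genes (Dpt, Gsn, Pdgfra and Pi16), with 3 start sites for Gsn. Each sequence gives the 250 bases before the start site, on the plus strand, 5′ to 3′, with matches to the searched motifs in capitals. The searched motifs, on both strands, were CAGCTG (an E-box form), TGANTCA (the AP-1 site), GGGCGG (the GC box) and TATAAA (the TATA box), which do not overlap each other in these windows.
Gsn first start, chr2:35256109-35256358: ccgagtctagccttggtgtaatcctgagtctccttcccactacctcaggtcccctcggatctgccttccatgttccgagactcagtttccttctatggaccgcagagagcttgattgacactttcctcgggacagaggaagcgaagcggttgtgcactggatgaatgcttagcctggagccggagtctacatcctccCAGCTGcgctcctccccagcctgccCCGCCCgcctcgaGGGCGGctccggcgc
Dpt, chr1:164796413-164796662: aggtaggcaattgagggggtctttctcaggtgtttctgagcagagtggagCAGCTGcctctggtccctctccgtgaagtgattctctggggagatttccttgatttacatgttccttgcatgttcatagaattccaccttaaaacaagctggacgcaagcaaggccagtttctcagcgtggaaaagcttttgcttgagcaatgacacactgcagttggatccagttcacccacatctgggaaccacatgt
Pdgfra, chr5:75152001-75152250: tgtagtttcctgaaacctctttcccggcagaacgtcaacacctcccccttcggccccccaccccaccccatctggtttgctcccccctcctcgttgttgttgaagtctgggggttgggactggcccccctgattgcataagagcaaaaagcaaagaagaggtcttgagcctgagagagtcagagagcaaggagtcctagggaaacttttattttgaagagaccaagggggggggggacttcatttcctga

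The window of the first Gsn start held 1 CAGCTG, whose first base lies at −53 from the start site, and GGGCGG on either strand at −28 and −15. Of the Gsn starts not shown, the second had CAGCTG at −216 and GGGCGG at −60. The third had GGGCGG at −12 and no CAGCTG. Which start these cells used was not tested. Dpt had 1 CAGCTG at −200. None of the searched motifs was in the Pdgfra window. Among 32851 mouse promoter windows of the same length, CAGCTG was in 13%, GGGCGG in 32.7%, TGANTCA in 6.75% and TATAAA in 12.4%. These matches describe the letters only.

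Genotype differences among the 10 genes were few, and Gsn carried them. At day 0, Gsn was higher in KO than in WT by 0.95 ± 0.22 on the log2 scale (adjusted p = 0.00678), and it was the only 1 of 10 genes past the threshold, beside 9.75% of all tested genes (4.82% higher and 4.93% lower). At day 1, Gsn was again the only 1 of 10, higher by 1.09 ± 0.22 (adjusted p = 0.00138), beside 9.2% of all tested genes (7.12% higher and 2.08% lower). At day 4, limma called 0 of 10 genes, 0 of 10 had an unadjusted p under 0.05, and edgeR and DESeq2 called 0 as well, beside 1.05% of all tested genes (0.53% higher and 0.524% lower). At days 0 and 1 the share of the 10 genes is near the background. Median log2 differences of the 10 genes were 0.64 at day 0, −0.03 at day 1 and 0.07 at day 4, against −0.00, −0.03 and −0.03 over all tested genes.

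The Gsn call at day 0 was lost with library weights (adjusted p = 0.194) and when only the 2 groups compared were fitted (adjusted p = 0.0938), and held without any single library (adjusted p of at most 0.0245). At day 1 it was lost after quantile normalization, where the difference was 0.63 (adjusted p = 0.13), and held without any single library (adjusted p of at most 0.00905). Other genes passed at day 1 under single alternatives. Pdgfra differed by 1.13 ± 0.58 with limma (adjusted p = 0.303) and was called with DESeq2 (5.75, adjusted p = 0.0135), with 216 of its 235 KO counts in KO day 1 replicate 4. Ly6a was called with library weights (1.33, adjusted p = 0.0489).

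Dcn and Mfap5 had higher means in KO at day 0 without passing the test. The Dcn mean was 825 ± 172 in KO and 319 ± 135 in WT (SD, n = 4 each), 2.58-fold apart in the means, with a log2 difference of 1.44 ± 0.68 (adjusted p = 0.201). Mfap5 averaged 56.3 ± 28.7 in KO and 16.4 ± 11.2 in WT (SD, n = 4 each), and the log2 difference of 1.77 ± 0.64 missed the threshold (adjusted p = 0.0813). It passed without KO day 1 replicate 4 (adjusted p = 0.0397), without WT day 0 replicate 3 (2.15, adjusted p = 0.0425) and with a pseudocount of 5 (1.52, adjusted p = 0.0402). Ly6a lay the other way at day 0, with a difference of −2.38 ± 0.96 (adjusted p = 0.124) that passed without WT day 0 replicate 2 (−3.43, adjusted p = 0.0146) or KO day 0 replicate 2 (−3.22, adjusted p = 0.0301). At later days the Ly6a differences were 1.52 ± 0.96 at day 1 (adjusted p = 0.456) and −1.26 ± 0.96 at day 4 (adjusted p = 0.82).

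**Figure D3:**
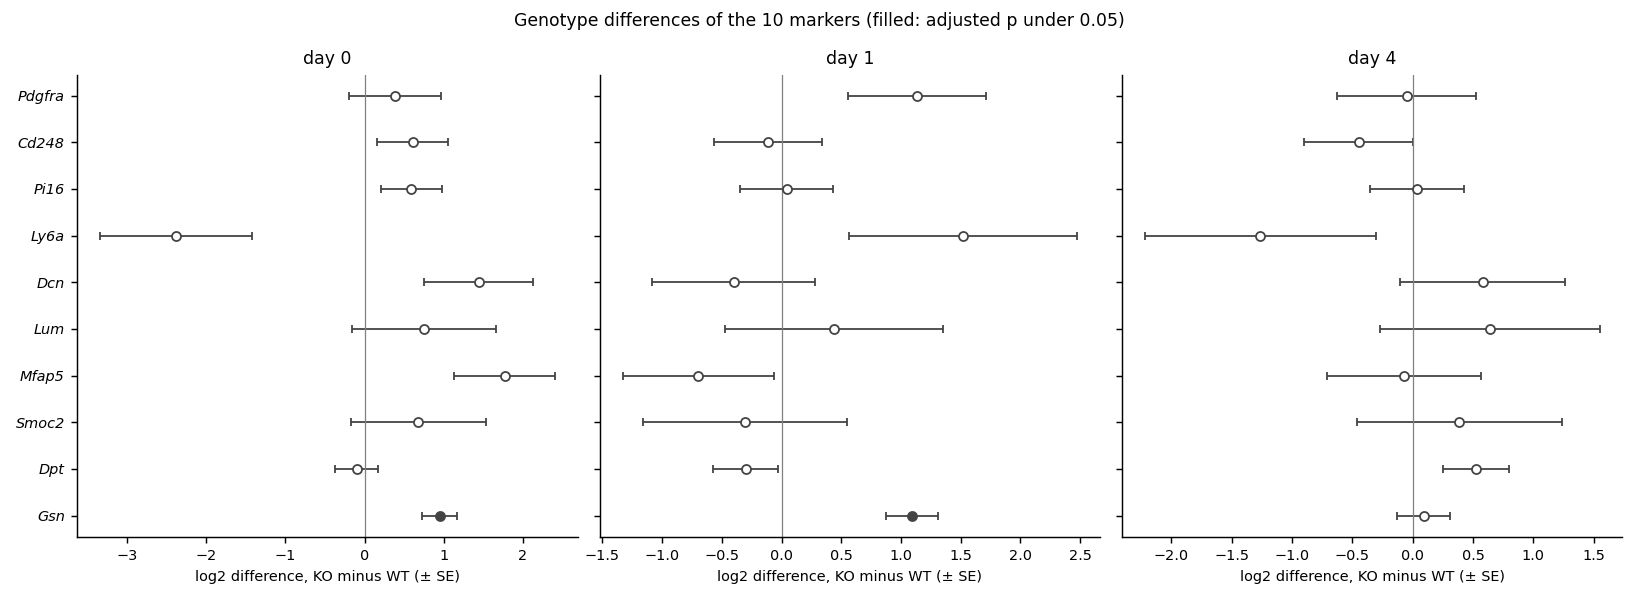
Log2 difference ± SE, KO minus WT, of each marker at days 0, 1 and 4 from the limma model, with filled points for adjusted p under 0.05. Gsn at days 0 and 1, at 0.95 and 1.09, holds the only filled points.

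Whether the genotype difference changed between days was tested directly, and no gene of the 10 passed with limma (0, 0 and 0 of 10 for day 1 minus day 0, day 4 minus day 1 and day 4 minus day 0, with 2, 2 and 1 genes at an unadjusted p under 0.05). Of all tested genes, 11.6% passed for the first interval (7.48% higher and 4.1% lower), 3.97% for the second (0.759% higher and 3.21% lower) and 3.99% for the whole (2.01% higher and 1.98% lower). Between days 0 and 1, edgeR and DESeq2 each called 2 of 10, Cd248 and Ly6a, and between the other days they called 0. Ly6a had the lowest adjusted p with limma, 0.0632, for a change of 3.90 ± 1.35 between days 0 and 1. It was called without WT day 0 replicate 2 (adjusted p = 0.00812) or KO day 0 replicate 2 (adjusted p = 0.0166). The change of Mfap5 over the same days was −2.46 ± 0.90 (adjusted p = 0.0794), or −3.19 without KO day 1 replicate 4 (adjusted p = 0.0111), and −2.85 without WT day 0 replicate 3 (adjusted p = 0.043). For Dcn the value was −1.84 ± 0.97 (adjusted p = 0.245), or −2.68 without KO day 1 replicate 4 (adjusted p = 0.0389). For Gsn the change between days 1 and 4 was −1.001 ± 0.31 (adjusted p = 0.073), and it was called without WT day 1 replicate 3 (adjusted p = 0.0312) or KO day 4 replicate 1 (adjusted p = 0.00913). It was also called with library weights, total-count scaling, only the groups compared or the stricter filter (adjusted p of 0.00609 to 0.0497). The Gsn change between days 0 and 4 was −0.85 ± 0.31 (adjusted p = 0.124). It was called with total-count scaling (−1.52, adjusted p = 0.0024) or without KO day 4 replicate 1 (−1.09, adjusted p = 0.0287).

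Replicates of a group differed in more than one gene at a time. After subtracting group means from log2(value + 1), Pearson's r over the 24 libraries was above 0.5 in 13 of the 45 pairs of the 10 genes, with a median of 0.0933 and a range of −0.457 to 0.831. The closest pairs were Dcn with Mfap5 (0.831), Pdgfra with Smoc2 (0.812), Dcn with Smoc2 (0.793) and Smoc2 with Mfap5 (0.759). Gsn, Cd248, Pi16 and Dpt had no pair above 0.5. Their highest values were 0.275 for Gsn with Cd248, 0.0933 for Pi16 with Dpt and 0.418 for Dpt with Dcn. Gsn had −0.457 against Smoc2 and −0.255 against Dcn. These values describe 24 libraries that share their group structure and depth, and they rest in part on the libraries that stood apart: in KO day 1 replicate 4, Dcn was 250 against 10.0 to 40.7 in the other 3, and Smoc2 was 37.7 against 0.0240 to 3.53. In KO day 4 replicate 3, Mfap5 was 186 against 27.3 to 41.1 in the other 3 libraries, Dcn 555 against 78.9 to 117, and Lum 142 against 10.2 to 32.8. Gsn was at 159 in that library, against 151 to 309.

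**Figure D4:**
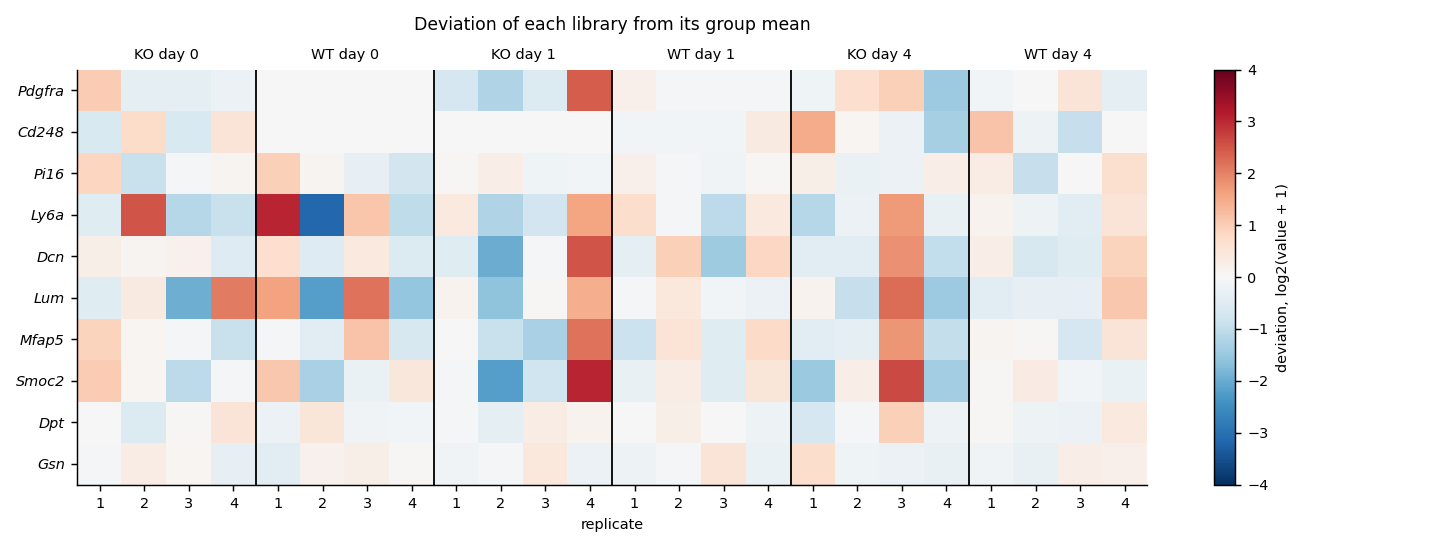
Deviation of log2(value + 1) of each marker (rows) from the mean of its group in each of the 24 libraries (columns, by group and replicate), red above and blue below the mean. KO day 1 replicate 4 and KO day 4 replicate 3 are red for Pdgfra, Ly6a, Dcn, Lum, Mfap5 and Smoc2, while Gsn and Pi16 lie slightly below their group means there.

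Genes outside the list were ranked by their likeness to the mean z-score of the 10 markers. Among 8927 genes with a mean value of at least 8, the highest Pearson's r over the 24 libraries were those of Col6a3 (0.798), a collagen VI chain, Asap1 (0.779), Il33 (0.773), a nuclear alarmin cytokine of stromal cells, and Lama4 (0.759), a laminin chain. After subtracting group means the highest were Apod (0.859), which encodes apolipoprotein D, Cthrc1 (0.789), a secreted protein of activated fibroblasts, and Lama4 (0.783). Apod was at 87.4 in KO day 1 replicate 4, against 1.94 to 5.24 in the other 3 libraries of the group, and at 72.6 in KO day 4 replicate 3, against 11.3 to 24.6. Cthrc1 was at 142 in KO day 4 replicate 3, against 7.30 to 27.4. These genes were picked for following the markers, so their high values in these libraries come with the choice.

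A wider set of 21 fibroblast genes was examined beside the markers, also chosen with earlier results known. Set against day 1, 12 of them rose and 4 fell in KO at day 4, and 13 rose and 4 fell in WT, beside 26.2% of all tested genes higher and 23.4% lower in KO, and 27.8% higher and 22.6% lower in WT. Their median log2 differences were 1.15 in KO and 1.24 in WT, against 0.18 in KO and 0.22 in WT over all tested genes. Col3a1, the chain of collagen III, averaged 907 ± 437 in KO and 763 ± 159 in WT at day 4, and 309 ± 49.4 in KO and 115 ± 27.8 in WT at day 1 (SD, n = 4 each). It was higher in KO at day 0 by 1.55 ± 0.23 (adjusted p = 0.000106) and at day 1 by 1.44 ± 0.23 (adjusted p = 0.00012). At day 0, 5 of the 21 genes were higher in KO (Adam12, Col1a1, Col3a1, Fbn1 and Sema3c), beside 4.82% of all tested genes. At day 1, 2 of 21 were higher (Col1a1 and Col3a1), beside 7.12% of all tested genes, a share near the background. Of 8 small leucine-rich proteoglycans, relatives of Dcn and Lum, 3 were higher in KO at day 0 (Ogn, Omd and Prelp), beside 4.82% of all tested genes in that direction. Of the genes named here, Adam12, Fbn1 and Sema3c and these 3 proteoglycans are named for having passed.

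Relatives of Pdgfra, Cd248, Mfap5, Ly6a and Gsn were looked at too. Pdgfrb, the beta receptor found on pericytes and fibroblasts, had counts in every group: it averaged 3.63 ± 1.27 in KO and 5.09 ± 4.18 in WT at day 0, 3.77 ± 0.20 in KO and 0.939 ± 0.577 in WT at day 1, and 12.96 ± 3.69 in KO and 6.32 ± 4.09 in WT at day 4 (SD, n = 4 each). Limma did not call Pdgfrb for KO against WT at any day. Between days it was called higher at day 4 against day 1 in both genotypes. It was also called lower at day 1 against day 0 in WT, and higher at day 4 against day 0 in KO. Of 14 relatives of the other members, 3 rose and 3 fell in KO, and 4 rose and 3 fell in WT, at day 4 against day 1, shares near those of all tested genes (26.2% higher and 23.4% lower in KO, 27.8% higher and 22.6% lower in WT). Capg, a capping protein of the gelsolin family, fell there in both genotypes, and so did Ly6e, while Svil and Cd93 rose in both. Capg, Ly6e, Svil and Cd93 are named after their values were seen.

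Markers of other cells changed at the same times. The sum of 16 macrophage genes was 26.3 to 49.6 in KO and 18.6 to 113 in WT at day 0, 11.2 to 19.5 in KO and 8.20 to 29.5 in WT at day 1, and 1252 to 1403 in KO and 1522 to 2075 in WT at day 4. It moved with the day 4 values of Pdgfra, Cd248 and Ly6a, and its part in them was not tested. Myofibre genes, 12 in the table, summed to 41.7 to 78.7 in KO and 203 to 275 in WT at day 1. Their sums overlapped at day 0 (39.5 to 82.0 in KO and 12.3 to 43.6 in WT). They overlapped at day 4 as well (148 to 286 in KO and 234 to 436 in WT). Of the 9 smooth muscle and pericyte genes the sum was 423 to 865 in KO and 283 to 364 in WT at day 0, so it lay higher in KO, as the sum of the 10 markers did. At day 1 it was 361 to 471 in KO and 258 to 339 in WT. As a share of the library the day 1 sums overlapped (0.0339% to 0.0436% in KO and 0.0295% to 0.0369% in WT). At day 4 the sums were 216 to 395 in KO and 192 to 336 in WT. Glial genes ran from 11.1 to 37.9 in KO and 5.02 to 78.2 in WT at day 0. Endothelial (7 of 12), tenocyte (4 of 8), adipocyte (4 of 8) and lymphocyte (2 of 10) lists were incomplete in the table.

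**Figure D5:**
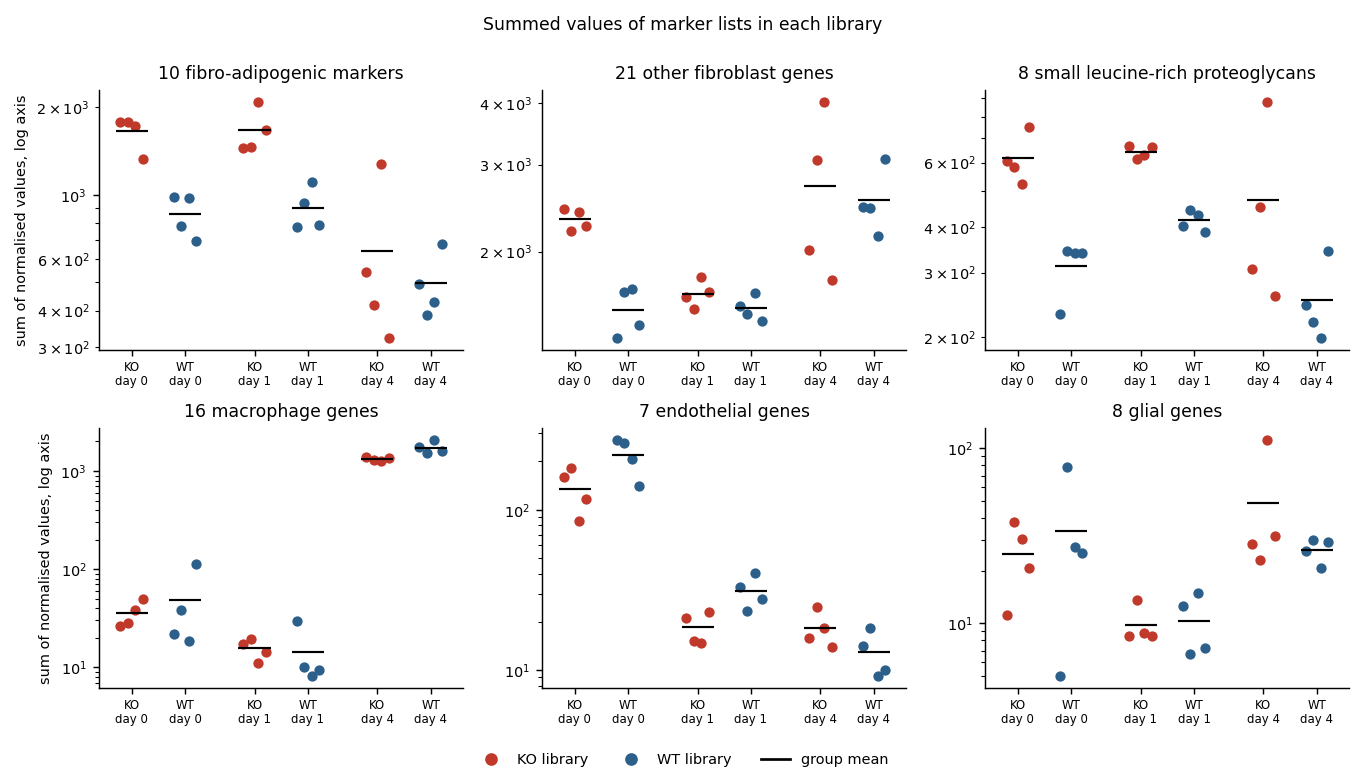
Summed normalised value on a log axis of 6 marker lists in each of the 24 libraries, KO (red) left of WT (blue) at days 0, 1 and 4, with a black line at the group mean. The 10 markers lie higher in KO at days 0 and 1 with no overlap, macrophage genes lie between 1252 and 2075 at day 4, and KO day 4 replicate 3 is the top library at day 4 for the markers, other fibroblast genes, proteoglycans and glial genes.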

How the data were processed

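FastQC, STAR, RSEM and limma, and the build mm39, are named without versions or order in the submitters' processing notes. The deposited table holds a normalised signal for 24 libraries. Tested on the table itself, each value of this deposited signal is a whole count plus 0.5 over a scaled library size in M: 100% of values came back whole within 0.02. The 10 genes and the 14 comparison lists were chosen with earlier results of these data known.

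One model of the 6 group means was fitted with limma 3.58.1 (R 4.3.3, mean-variance trend) to log2(value + 1) of 16985 genes, those reaching a value of 1 in 4 or more libraries. Contrasts are two-sided, adjusted by Benjamini-Hochberg over all tested genes, with a threshold of 0.05. Log2 differences are on the log2(value + 1) scale, given ± SE. The script was tested on simulated counts. Alternatives were other filters, scalings, pseudocounts (0.5 and 5), library weights, no trend, only the groups compared, a replicate block, the recovered counts in edgeR 4.0.16 and in DESeq2 1.42.0, and each library left out. Leaving out KO day 1 replicate 4 and KO day 4 replicate 3 together was chosen after seeing the data. All 10 genes are named, and of other lists counts, with up to 4 members of highest mean, 8 fixed genes such as Col3a1 and Pdgfrb, and the 10 genes most alike by each measure. Other genes are said to be named after their values were seen. Strand use in counting is not given in the sources used here, so reads of overlapping or antisense genes, and of near-identical copies, may be divided between them.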

Additional observations from a re-analysis of the deposited data

Results flagged for a closer look

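Of 57 combinations of gene and group with any counts, 7 had a library far from the other 3 of its group (Dixon's ratio above its critical value). For normal values chance gives about 1 in 20, a rate that cannot be set beside this count, because in WT day 1 the other 3 libraries of Pdgfra and of Cd248 had 0 counts and any counted library stands apart. Pdgfra was high in KO day 0 replicate 1, at 1.76, and in WT day 1 replicate 1, at 0.228, which is 5 counts. Cd248 was high in WT day 1 replicate 4, at 0.418, which is 8 counts. Dcn was low in KO day 0 replicate 4, at 570. Lum was high in WT day 4 replicate 4, at 40.3. Dpt was high in WT day 0 replicate 2, at 226. Gsn was high in KO day 4 replicate 1, at 309. None of the 30 tests of a change in genotype difference between days passed with limma.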

How the results depend on the processing

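Numbers of the 10 genes past the threshold moved by more than 1.5 times as follows. KO against WT at day 0 (1 gene): 0 with library weights or only the groups compared, and 2 with a pseudocount of 5 or both libraries left out. KO against WT at day 1 (1): 0 with quantile normalization, and 2 with library weights or DESeq2. WT day 1 against day 0 (4): 2 with total-count scaling and 1 with library weights. Day 4 against day 1 (7 in each genotype): 4 with the stricter filter in KO and in WT, which keeps 7 of the 10 genes. KO day 4 against day 0 (5): 3 with library weights, and 3 with edgeR and both libraries left out. For the change of the genotype difference between days 0 and 1 (0), the stricter filter and total-count scaling gave 1, and edgeR, DESeq2, both libraries left out, and edgeR with both left out gave 2. Between days 1 and 4 (0), the stricter filter, total-count scaling and library weights gave 1, and only the groups compared gave 2. Between days 0 and 4 (0), total-count scaling and both libraries left out gave 1. The cause was not tested.

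Leaving out 1 library at a time, the counts ranged from 1 to 2 for KO against WT at day 0, stayed at 1 at day 1 and at 0 at day 4, and ran in KO from 4 to 6 for day 1 against day 0, 5 to 9 for day 4 against day 1 and 5 to 6 for day 4 against day 0. In WT these were 2 to 4, 7 and 4 to 7. The changes of the genotype difference ranged from 0 to 2 between days 0 and 1, and from 0 to 1 for the other intervals. Gsn in WT at day 4 against day 0 reversed, from −0.74 to 0.26, after quantile normalization. Among differences not past the threshold, Dpt in WT at day 1 against day 0 turned to 0.032 with total-count scaling, and Mfap5 in KO at day 4 against day 0 turned to −0.21 with total-count scaling, to −0.23 without KO day 0 replicate 4, to −0.52 without KO day 4 replicate 3 or without both libraries, and to −0.60 with edgeR and both left out (the highest value with 1 library left out was 0.39). Total-count scaling moved the median of all tested genes to −0.48 for KO against WT at day 4, with 60 genes higher and 1805 lower (90 and 89 as reported), and to 0.51 for WT day 4 against day 0, from 0.23. Of all tested genes, edgeR on the recovered counts called 772 higher and 775 lower in KO at day 0 (limma 819 and 837, DESeq2 1315 and 1221), 1168 higher and 239 lower in KO at day 1 (limma 1209 and 353, DESeq2 1127 and 622), 60 higher and 25 lower in KO at day 4 (limma 90 and 89, DESeq2 146 and 84). Replicate numbers did not pair libraries: of 60 same-numbered pairs 1 had a correlation of deviations above 0.1 (median 0.00364), and 7 of 24 libraries correlated best with their own number. With the replicate number as a block, the counts in all 12 comparisons were those reported, for example 1 gene for KO against WT at day 0 and 7 genes for KO day 4 against day 1. Depth limits Pdgfra, Cd248 and Pi16, which had fewer than 30 counts in most libraries of days 0 and 1.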
